A study of Homo sapiens with 6 samples.

Results

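Myosin light chains and the kinases that phosphorylate them were followed in cardiomyocytes derived from the human induced pluripotent stem cell line WTC11. The set was chosen by gene symbol and held 10 of the 38557 genes listed in each count table, namely MYL2, MYL3, MYL4, MYL7, MYL6, MYL9, MYL12A, MYLK, MYLK2 and MYLK3. The cells carried no labelled genetic change and were kept in RPMI plus B27, where B27 is a serum-free supplement, or in DMEM plus fatty acids. Each medium had 3 libraries, labelled as biological replicates and numbered 1 to 3 in both. The labels give neither the age of the cells nor the time in the medium, and all cells came from a single line. Because each library is a bulk sample, fewer cells of a type and less RNA per cell cannot be told apart in any value below.

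Each myosin motor is a pair of heavy chains, and every heavy chain binds an essential and a regulatory light chain. The regulatory chain is phosphorylated by calcium- and calmodulin-dependent light chain kinases and dephosphorylated by myosin phosphatase. In the heart, MYL2 and MYL3 are the regulatory and essential chains of the ventricle, and MYL7 and MYL4 those of the atrium, and both atrial forms are also made in the early ventricle. MYL9 and MYL12A are regulatory chains and MYL6 an essential chain of smooth muscle and non-muscle myosin. MYLK is the kinase of smooth muscle and non-muscle cells, MYLK2 that of skeletal muscle and MYLK3 that of cardiac muscle.

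The RefSeq promoter table (GRCh38.p14) held windows for 6 of the 10 members, with 10 windows in all; MYL2, MYL4, MYL9 and MYLK2 had none. Windows were searched on both strands, over the 250 bases before each start, for the CArG box, the motif of serum response factor, and for a GATA motif (AGATAA or TGATAA). Among the members' windows, those of MYL7 and of an internal start of MYLK held a CArG box, which 1.16% of all 35116 windows contained, and these 2 genes are set side by side below. The MYLK start lies close to the 3′ end of the gene, in the part that also gives rise to telokin, a short product holding the kinase's C-terminal domain. No other MYLK window was held, so the bases before the 5′ end of this gene were not searched. A GATA motif was found before MYL7, before 1 start of MYL3 and before 1 start of MYLK3, and in 14.6% of all windows. The sequences run 5′ to 3′ on the minus strand and end at the base before the start. Capitals mark the CArG box at -61 to -52 and the GATA motif at -42 to -37 of MYL7 (chr7:44141333-44141582), the CArG box at -94 to -85 of MYLK (chr3:123620549-123620798) and the GATA motif at -85 to -80 of MYL3 (chr3:46861685-46861934). A match describes the letters of a window and says nothing of binding.

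MYL7: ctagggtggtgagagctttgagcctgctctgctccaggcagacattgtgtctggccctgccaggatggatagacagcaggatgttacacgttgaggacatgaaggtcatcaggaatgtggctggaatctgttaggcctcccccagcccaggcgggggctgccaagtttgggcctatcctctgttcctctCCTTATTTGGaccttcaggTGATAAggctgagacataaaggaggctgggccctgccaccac

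MYLK: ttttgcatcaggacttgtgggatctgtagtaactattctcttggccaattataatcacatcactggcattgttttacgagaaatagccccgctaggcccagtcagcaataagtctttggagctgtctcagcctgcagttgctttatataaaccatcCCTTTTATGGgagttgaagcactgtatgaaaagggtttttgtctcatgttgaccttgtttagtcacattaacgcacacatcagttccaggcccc

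MYL3: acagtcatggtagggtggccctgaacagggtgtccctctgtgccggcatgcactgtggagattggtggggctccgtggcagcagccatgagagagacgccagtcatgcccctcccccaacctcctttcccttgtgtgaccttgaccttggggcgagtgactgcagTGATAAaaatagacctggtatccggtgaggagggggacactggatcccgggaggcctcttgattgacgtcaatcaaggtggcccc

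The 6 libraries held 23232324 to 31035389 gene counts, and the members took 1.04% to 1.76% of them. Defining cardiomyocyte genes were abundant, with a summed level over 10 markers of 12452 to 15349 CPM (counts scaled to the size of the library) in RPMI plus B27 and 9828 to 14695 CPM in DMEM plus fatty acids. Of 10 skeletal muscle markers, 7 had at most 10 counts in every library, and MYOD1, MYF5 and PAX7 were at 0 in all 6. The other 3 were CKM, MYH3 and TNNC2. CKM was abundant, at 412 to 546 CPM in RPMI plus B27 and 661 to 919 CPM in DMEM plus fatty acids. MYH3 and TNNC2 were low, at 26 to 84 and 2 to 34 counts per library. The smooth muscle markers are given beside MYLK. Library sizes were adjusted by TMM, and a level of 3 counts, which a count of 0 allows, corresponds to 0.0889 to 0.129 CPM.

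Per kilobase of transcript, the level of MYL7 (chr7:44138864-44141332) was far above the others, at a mean of 9949 ± 2728 CPM per kilobase in RPMI plus B27 (SD, n = 3 here and in all means below). In DMEM plus fatty acids its mean was 9926 ± 3859. MYL4 (chr17:47200446-47223679) followed with 2499 ± 429 and 2248 ± 485. MYL6 (chr12:56158161-56163496) and MYL3 (chr3:46857872-46882169) came next, at 1686 ± 369 and 1391 ± 110 in RPMI plus B27 and at 1408 ± 245 and 1407 ± 288 in DMEM plus fatty acids. MYL9 (chr20:36541484-36551447) lay at 1143 ± 125 and 1006 ± 311, and MYL2 (chr12:110910819-110920722) at 422 ± 398 and 333 ± 241. MYL12A (chr18:3247481-3256236) and MYLK3 (chr16:46703369-46790407) had levels of 177 ± 13.3 and 139 ± 36.4 in RPMI plus B27, and 119 ± 29.6 and 125 ± 16.3 in DMEM plus fatty acids. MYLK (chr3:123610049-123884331) reached 4.32 ± 2.00 and 1.37 ± 1.34 CPM per kilobase, and MYLK2 (chr20:31819308-31834689) had 1 to 9 counts per library. Coordinates are those of GENCODE 29 on GRCh38. In this order, the ranges over the 6 libraries did not overlap between MYL7 and MYL4 or between MYLK3 and MYLK, and those of all other neighbours down to MYLK3 overlapped. MYL9 has 2 coding transcript models whose lengths average 1922.5 bases, so its place in the order depends on which one the cells use.

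**Figure D1:**
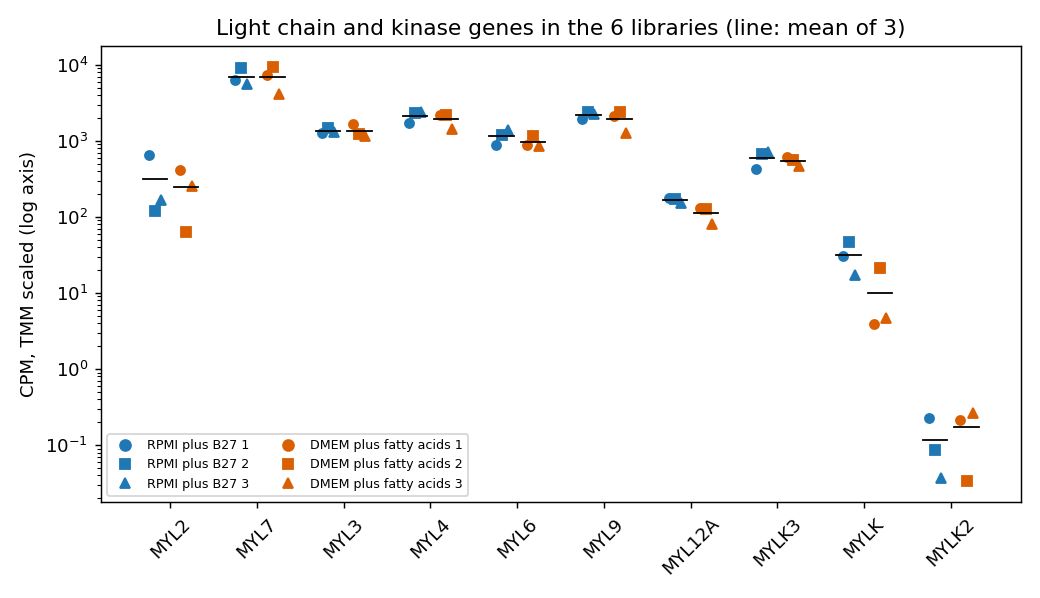
CPM (log axis) of the 10 members in each of the 6 libraries, with the mean of 3 libraries per medium as a line. MYL7 lies highest, at 4066 to 9429 CPM, and MYLK2 lowest; the media overlap for every member except MYL12A among the 9 that could be tested.

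None of the 9 members that passed the filter on low counts differed between media by edgeR's quasi-likelihood test at an adjusted p under 0.05, where 1.36% of all 16107 tested genes did (219 genes). MYLK2 did not pass the filter and was not tested. DESeq2's Wald test also called 0 of the 9, against 6.93% of the genes it tested. At an unadjusted p under 0.05 there were 2 members, MYL12A and MYLK, while 17.7% of all genes reached that level. When the replicate number entered the fit as a block, 1 of the 9 was called, MYLK, against 4.78% of all genes. The 3 libraries of each medium did not overlap for 1 of the 9, MYL12A, against 25.6% of all genes. Of the 9 fitted log2 fold changes (level in DMEM plus fatty acids relative to that in RPMI plus B27), 8 were below 0, with a median of -0.18, and the median of all tested genes was 0.01.

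MYL2, the ventricular regulatory chain, had 647, 118 and 166 CPM in RPMI plus B27 (replicates 1 to 3) and 418, 62.9 and 253 CPM in DMEM plus fatty acids. The library numbered 1 was the highest and the one numbered 2 the lowest in both media, and the media overlapped widely. The log2 fold change of MYL2 was -0.34 ± 0.79 (SE, edgeR adjusted p 0.860). Without RPMI plus B27 replicate 1 it was 0.78, and without DMEM plus fatty acids replicate 2 it was 0.11, so its sign rested on single libraries.

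MYL7, the atrial regulatory chain, had 6225, 9155 and 5557 CPM in RPMI plus B27 and 7394, 9429 and 4066 CPM in DMEM plus fatty acids. Here replicate 2 was the highest and replicate 3 the lowest in both media. The log2 fold change was -0.0033 ± 0.35 (edgeR adjusted p 0.998).

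The spread of MYL2 and MYL7 thus followed the replicate number and not the medium. When the sum of squares of log2 CPM over the 6 libraries was divided, the replicate number held 89.4% of it for MYL2 and 87.5% for MYL7, and the medium 1.94% and 0.399%. The median over all tested genes was 39.9% for the replicate number and 25.5% for the medium. With 3 levels against 2, the replicate number takes on average a larger share than the medium even where neither has an effect. IRX4 and HEY2, transcription factors of the ventricle, likewise had their lowest level at replicate 2 in both media. IRX4 had 72.2, 17.4 and 62.8 CPM in RPMI plus B27 and 120.6, 22.1 and 57.3 CPM in DMEM plus fatty acids. HEY2 had 98.5, 42.4 and 101.6 CPM and 89.5, 24.3 and 53.9 CPM. The replicate number held 94.0% of the sum of squares for IRX4 and 77.9% for HEY2. The other genes of the ventricular marker list had other orders. HAND1 was lowest at replicate 1 in both media (64.0, 122 and 206 CPM, then 81.0, 161 and 198 CPM), and MYH7 was lowest at replicate 2 in RPMI plus B27 and at replicate 3 in DMEM plus fatty acids. IRX4 and HEY2 were picked after their values were seen. These figures describe 6 libraries and carry no test, and what the replicate number stands for was not tested.

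Markers of the 2 chambers were also summed, leaving out the light chains. The 6 atrial markers summed to 168.5 to 449.7 CPM in RPMI plus B27 and to 83.4 to 94.5 CPM in DMEM plus fatty acids. Of the 5 that could be tested, 4 had a fold change below 0 (median log2 fold change -1.75), 0 were called by edgeR without the block, 3 with it and 2 by DESeq2. Over all tested genes, 51.0% had a fold change above 0. Of these genes edgeR called 1.36% without the block and 4.78% with it, and DESeq2 called 6.93% of those it tested. The 4 ventricular markers, MYH7 among them, summed to 7726 to 13594 CPM and to 2803 to 6373 CPM, with 0 called without the block, 1 with it and 1 by DESeq2. Neither sum overlapped between media, and MYL7, MYL4, MYL2 and MYL3 all did. MYH7 made up most of the ventricular sum. It had 13359, 7544 and 8011 CPM in RPMI plus B27 and 6082, 3427 and 2493 CPM in DMEM plus fatty acids. IRX4, HEY2 and HAND1 each overlapped between media (log2 fold changes 0.39, -0.53 and 0.17). NPPA made up most of the atrial sum, with 393, 185 and 155 CPM, then 66.0, 66.3 and 86.0 CPM. The atrial marker above 0 was KCNJ3 (log2 fold change 1.23 ± 0.95, edgeR adjusted p 0.542). The part of chamber type in the light chain values was not tested.

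**Figure D2:**
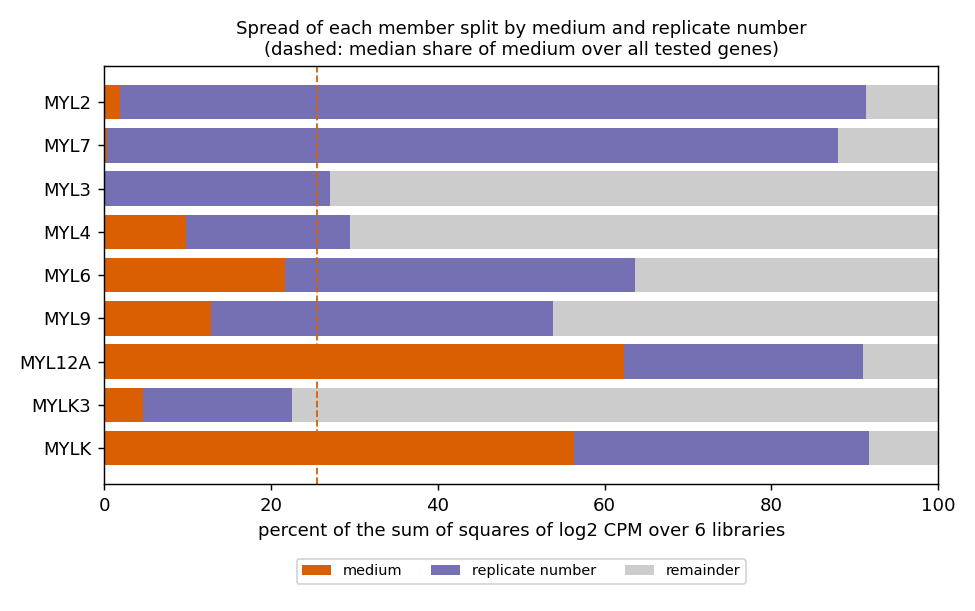
Percent of the sum of squares of log2 CPM over the 6 libraries that falls to the medium, to the replicate number and to the remainder, for the 9 tested members. The replicate number holds most of it for MYL2 (89.4%) and MYL7 (87.5%), and the medium holds more than the dashed median of all genes (25.5%) for MYL12A and MYLK.

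The ventricular share of the regulatory chains, counts of MYL2 over those of MYL2 and MYL7, was 9.42%, 1.28% and 2.90% in RPMI plus B27. It was 5.35%, 0.663% and 5.87% in DMEM plus fatty acids, so MYL7 supplied most of these counts in all 6 libraries. The 95% Wilson intervals, which cover counting error alone, spanned at most 0.268 percentage points. The means were 4.53% ± 4.31 and 3.96% ± 2.87 (SD, n = 3 each), a difference of -0.575 percentage points (exact two-sided permutation p 0.9, 0.9 adjusted over 8 shares). Here 3 against 3 libraries cannot give a p under 0.1. Within pairs of the same number the share changed by -4.07, -0.614 and 2.96 percentage points. Per kilobase of transcript the means were 4.34% ± 4.13 and 3.79% ± 2.74.

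MYL3, the ventricular essential chain, had 1252, 1462 and 1325 CPM in RPMI plus B27 and 1681, 1239 and 1165 CPM in DMEM plus fatty acids. The highest and the lowest value were both in DMEM plus fatty acids. The log2 fold change was 0.02 ± 0.18 (edgeR adjusted p 0.972).

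MYL4, the atrial essential chain, had 1716, 2306 and 2389 CPM in RPMI plus B27 and 2161, 2162 and 1443 CPM in DMEM plus fatty acids. The media overlapped, and the lowest library was DMEM plus fatty acids replicate 3. The log2 fold change was -0.15 ± 0.22 (edgeR adjusted p 0.767), and 0.02 without that library.

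The ventricular share of the essential chains, counts of MYL3 over those of MYL3 and MYL4, was 42.2%, 38.8% and 35.7% in RPMI plus B27 and 43.8%, 36.4% and 44.7% in DMEM plus fatty acids. The essential chains were thus far more evenly divided than the regulatory chains in each library. The means were 38.9% ± 3.26 and 41.6% ± 4.51 (SD, n = 3 each), a difference of 2.73 percentage points (exact two-sided permutation p 0.4, 0.533 adjusted over 8 shares). Per kilobase of transcript they were 36.0% ± 3.16 and 38.7% ± 4.38. In the same libraries the share of MYH7, the beta heavy chain, among the counts of MYH6 and MYH7 was 58.6% to 79.2% in RPMI plus B27 and 22.5% to 47.4% in DMEM plus fatty acids. The heavy chain share did not overlap between media (exact permutation p 0.1, the smallest possible, 0.267 adjusted over 8 shares), and both cardiac light chain shares did.

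**Figure D3:**
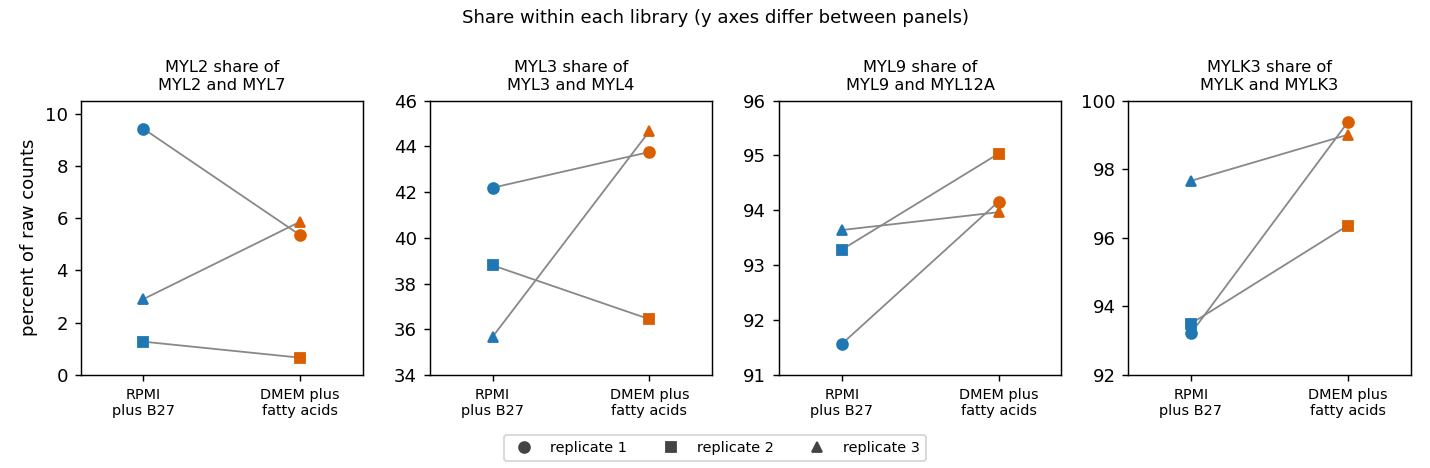
Share of raw counts within each library for 4 pairs of genes, RPMI plus B27 at the left and DMEM plus fatty acids at the right of each panel, with lines joining libraries of the same replicate number and a different y axis in each panel. The MYL2 share differs more between replicate numbers (0.663% to 9.42%) than between media, and the shares of MYL9 and MYLK3 are higher in DMEM plus fatty acids in all 3 pairs.

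MYL6, the essential chain of smooth muscle and non-muscle myosin, had 881, 1198 and 1379.9 CPM in RPMI plus B27 and 887, 1155 and 847 CPM in DMEM plus fatty acids. The media overlapped (log2 fold change -0.26 ± 0.21, edgeR adjusted p 0.569). The GENCODE models of MYL6 and of its neighbour MYL6B (chr12:56152256-56159647) overlap. The RefSeq models do not, with MYL6B ending at 56157982 and MYL6 starting at 56158359. The annotation used for counting is not given, so whether reads in a shared stretch were set aside as ambiguous is not known. MYL6B, a further essential chain, had 63.8 ± 5.30 CPM in RPMI plus B27 and 52.7 ± 7.75 CPM in DMEM plus fatty acids (log2 fold change -0.27 ± 0.14, edgeR adjusted p 0.367).

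MYL12A, the non-muscle regulatory chain, had 178, 172 and 154 CPM in RPMI plus B27 and 133, 126 and 81.0 CPM in DMEM plus fatty acids. Every library in DMEM plus fatty acids lay below every library in RPMI plus B27. The log2 fold change was -0.57 ± 0.19 without the block (edgeR adjusted p 0.191) and -0.60 ± 0.13 with it (0.0629), so it was not called in either fit. Without DMEM plus fatty acids replicate 3 it was -0.38. Within pairs of the same number the ratio of the media was 0.745, 0.729 and 0.526.

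MYL12B (chr18:3261479-3278431), the close copy of MYL12A that lies beside it on chromosome 18, had 166 ± 20.8 CPM in RPMI plus B27 and 141 ± 19.8 CPM in DMEM plus fatty acids, and its media overlapped. Its log2 fold change was -0.24 ± 0.15 (edgeR adjusted p 0.456). MYL12A made up 47.9% to 54.9% of the counts of both genes in RPMI plus B27 and 40.6% to 47.5% in DMEM plus fatty acids. The means differed by -6.20 percentage points (exact two-sided permutation p 0.1, the smallest possible, 0.267 adjusted over 8 shares), and all 3 pairs were lower in DMEM plus fatty acids. Reads that align to more than 1 place stand in a row of their own in the tables, so the split between these near-identical copies is uncertain.

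MYL9, the regulatory chain of smooth muscle, had 1930.2, 2395 and 2266 CPM in RPMI plus B27 and 2137, 2404 and 1261 CPM in DMEM plus fatty acids. The highest and the lowest value were both in DMEM plus fatty acids, and the log2 fold change was -0.18 ± 0.26 (edgeR adjusted p 0.752). Without DMEM plus fatty acids replicate 3 it was 0.05. The MYL9 share of the counts of MYL9 and MYL12A was 91.6% to 93.6% in RPMI plus B27 and 94.0% to 95.03% in DMEM plus fatty acids. Its means, 92.8% ± 1.11 and 94.4% ± 0.568 (SD, n = 3 each), did not overlap in their libraries (exact two-sided permutation p 0.1, the smallest possible, 0.267 adjusted over 8 shares). With MYL12B also in the denominator the shares overlapped, at 85.6% to 87.7% and 86.4% to 89.5% (exact permutation p 0.3, 0.48 adjusted over 8 shares).

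MYL9 values overlapped between media, and those of 6 of 9 smooth muscle markers did not. Over all tested genes, 25.6% did not overlap. TAGLN (transgelin) had 478, 432 and 333 CPM in RPMI plus B27 and 48.6, 253 and 47.3 CPM in DMEM plus fatty acids, and ACTA2 (smooth muscle actin) 462, 545 and 525 CPM and 76.5, 372 and 70.2 CPM. Neither was called with all 6 libraries (log2 fold changes -1.83 ± 0.65 and -1.56 ± 0.62, edgeR adjusted p 0.206 and 0.253). Of 12 alternative settings, 1 called them, with DMEM plus fatty acids replicate 2 left out, at -3.11 (0.0143) for TAGLN and -2.80 (0.00966) for ACTA2. Leaving out any other library did not call them (edgeR adjusted p 0.236 to 0.375 for TAGLN and 0.314 to 0.441 for ACTA2). The fit with the block did not either (0.0575 and 0.0679). Within a library, the log2 ratio of MYL9 to TAGLN was 2.01, 2.47 and 2.77 in RPMI plus B27 and 5.46, 3.25 and 4.74 in DMEM plus fatty acids. That of MYL9 to ACTA2 was 2.06, 2.13 and 2.11 and then 4.804, 2.69 and 4.17. Both ratios were higher in every library of DMEM plus fatty acids, by 2.06 and 1.79 on the log2 scale (exact two-sided permutation p 0.1 each, the smallest possible, 0.36 adjusted over 9 ratios). These ratios were chosen after the values had been seen.

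MYLK, the smooth muscle and non-muscle kinase, had 30.8, 46.4 and 17.3 CPM in RPMI plus B27 and 3.88, 21.2 and 4.71 CPM in DMEM plus fatty acids. It was lower in DMEM plus fatty acids in all 3 pairs of the same number, at 0.126, 0.458 and 0.273 of the level in RPMI plus B27, although DMEM plus fatty acids replicate 2 lay above RPMI plus B27 replicate 3. MYLK fell by 1.95 ± 0.35 on the log2 scale in the fit with the replicate block (edgeR adjusted p 0.0373). Without the block its log2 fold change was -1.66 ± 0.68 (adjusted p 0.264), and it was -2.87 without DMEM plus fatty acids replicate 2 and -1.27 without RPMI plus B27 replicate 2. The counts are per gene, so full-length kinase and telokin cannot be told apart, and without a stated strand setting neither can an antisense partner.

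Some smooth muscle markers were lower in DMEM plus fatty acids too. Of 9 markers, all 9 had a fitted fold change below 0, with a median of -1.28, and 2 were called without the block, LMOD1 (leiomodin 1, log2 fold change -1.62 ± 0.21, edgeR adjusted p 0.0292) and CALD1 (caldesmon, -1.37 ± 0.23, 0.0427). Leaving out any 1 of the 6 libraries ended the LMOD1 call (edgeR adjusted p 0.0511 to 0.0958), with log2 fold changes of -1.74 to -1.42, and cut the calls among all genes from 219 to between 3 and 131. The CALD1 call also ended (0.0838 to 0.123), except without RPMI plus B27 replicate 3. With the block 3 markers were called. Over all tested genes, 51.0% had a fold change above 0, and 1.36% were called without the block and 4.78% with it. The summed level of the 9 markers was 2344 to 2936 CPM in RPMI plus B27 and 852 to 1664 CPM in DMEM plus fatty acids. As for MYLK, the highest value in DMEM plus fatty acids was at replicate 2 for ACTA2, TAGLN, CNN1, MYH11, LMOD1, CALD1 and SYNPO2. For SMTN and MYOCD it was at replicate 1. LMOD1 had 67.3, 68.5 and 41.1 CPM in that medium, so its replicates 1 and 2 were close. MYH11, SMTN and SYNPO2 overlapped between media. Of 10 fibroblast markers, 9 had a fold change below 0. Of the 10, 4 were called without the block (1.36% of all tested genes) and 7 with it (4.78%). The summed level of the fibroblast markers was 4239 to 8039 CPM in RPMI plus B27 and 744 to 1928 CPM in DMEM plus fatty acids. The part of these cell types in the MYLK result was not tested.

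**Figure D4:**
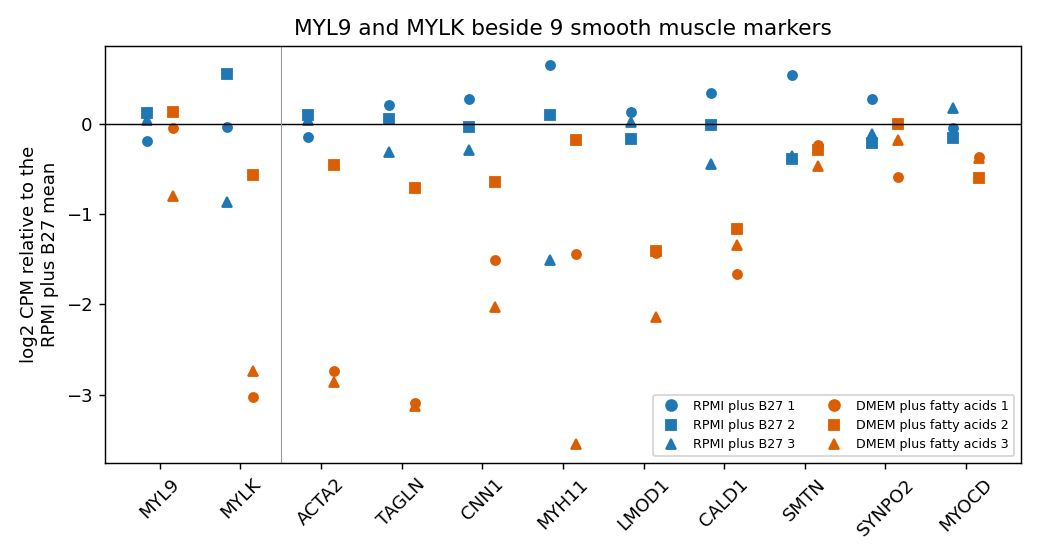
Log2 CPM relative to the RPMI plus B27 mean for MYL9, MYLK and 9 smooth muscle markers in each library. MYL9 lies between -0.80 and 0.13 in all 6 libraries. In DMEM plus fatty acids, MYLK, ACTA2 and TAGLN lie between -3.13 and -2.74 in replicates 1 and 3. In replicate 2 they lie between -0.71 and -0.46, and MYLK (-0.57) is there above its value in RPMI plus B27 replicate 3 (-0.87). Other markers differ. SMTN, SYNPO2 and MYOCD lie between -0.59 and -0.18 in replicates 1 and 3 of DMEM plus fatty acids. CALD1 (-1.16) and LMOD1 (-1.41) stay low in its replicate 2.

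MYLK3, the cardiac kinase, had 423, 667 and 720.1 CPM in RPMI plus B27 and 607, 562 and 468 CPM in DMEM plus fatty acids. All values in DMEM plus fatty acids lay inside the range of RPMI plus B27 (log2 fold change -0.15 ± 0.22, edgeR adjusted p 0.776). MYLK3 gave 93.2%, 93.5% and 97.7% of the counts of MYLK and MYLK3 in RPMI plus B27 and 99.4%, 96.4% and 99.0% in DMEM plus fatty acids. The share was higher in DMEM plus fatty acids in all 3 pairs, by 6.15, 2.86 and 1.34 percentage points, but the media overlapped (exact two-sided permutation p 0.2, 0.4 adjusted over 8 shares). Per kilobase of transcript the means were 96.8% ± 1.54 and 98.9% ± 1.00 (SD, n = 3 each).

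MYLK2, the skeletal muscle kinase, had 6, 2 and 1 counts in RPMI plus B27 and 5, 1 and 9 counts in DMEM plus fatty acids. These lie around the 3 counts that a count of 0 allows, and no fold change is given. The fast skeletal chains MYL1 and MYLPF were as rare, with 1 to 9 and 2 to 8 counts per library. MYLK4, a further relative of the kinases, had 1.45 ± 0.15 CPM in RPMI plus B27 and 1.14 ± 0.11 CPM in DMEM plus fatty acids (log2 fold change -0.35 ± 0.28, edgeR adjusted p 0.550).

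DMEM plus fatty acids replicate 3 was the lowest of the 6 libraries for 6 of the 9 tested members, MYL3, MYL4, MYL7, MYL6, MYL9 and MYL12A, and for 14.3% of all tested genes. The summed level of the 7 light chains was 9117 CPM in that library and 12830.0 to 16807 CPM in the other 5. The sum of the 10 cardiomyocyte markers was also the lowest of the 6 in that library, at 9828 CPM. Single markers varied. TNNI3, MYBPC3 and PLN were lower in RPMI plus B27 replicate 3, and NKX2-5 was lower in DMEM plus fatty acids replicate 1. Against TNNT2 (cardiac troponin T) in the same library, the log2 ratio of MYL4 was -0.96, -0.41 and -0.40 in RPMI plus B27. It was -0.96, -0.67 and -1.06 in DMEM plus fatty acids, and the media overlapped (exact permutation p 0.2, 0.36 adjusted over 9 ratios). The ratios to TNNT2 of MYL4, MYL7 (0.44) and MYL9 (-1.25) were lowest of the 6 in DMEM plus fatty acids replicate 3. Those of MYL3 (-1.37) and MYLK3 (-2.68) were not lowest in this library, and MYLK3 was not among the 6 members above. For MYL6 and MYL12A this ratio was not computed. MYL6 had 847 CPM beside 3001 CPM of TNNT2 in this library. In DMEM plus fatty acids replicate 1 it had 887 CPM beside 4216 CPM, so MYL6 was not lowest relative to TNNT2 here. The part of cell composition in this library's low light chain level was not tested.

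The rest of the pathway was described from 5 lists holding 47 genes, of which 46 were in the tables and 42 could be tested. None was called by edgeR without the block (1.36% of all tested genes were), and 11 of the 42 had an unadjusted p under 0.05 (17.7% of all genes). With the block 4 were called (4.78% of all genes), and DESeq2 called 4 (6.93% of those it tested). Among 6 other light chain genes in the tables, MYL5, a less studied regulatory chain, had 16.3, 14.1 and 13.3 CPM in RPMI plus B27 and 24.7, 24.8 and 24.7 CPM in DMEM plus fatty acids. The media did not overlap, and MYL5 rose by 0.77 ± 0.14 on the log2 scale with the block (edgeR adjusted p 0.0369). Without the block the value was 0.76 ± 0.14 (0.0543), and DESeq2 gave an adjusted p of 0.00024.

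**Figure D5:**
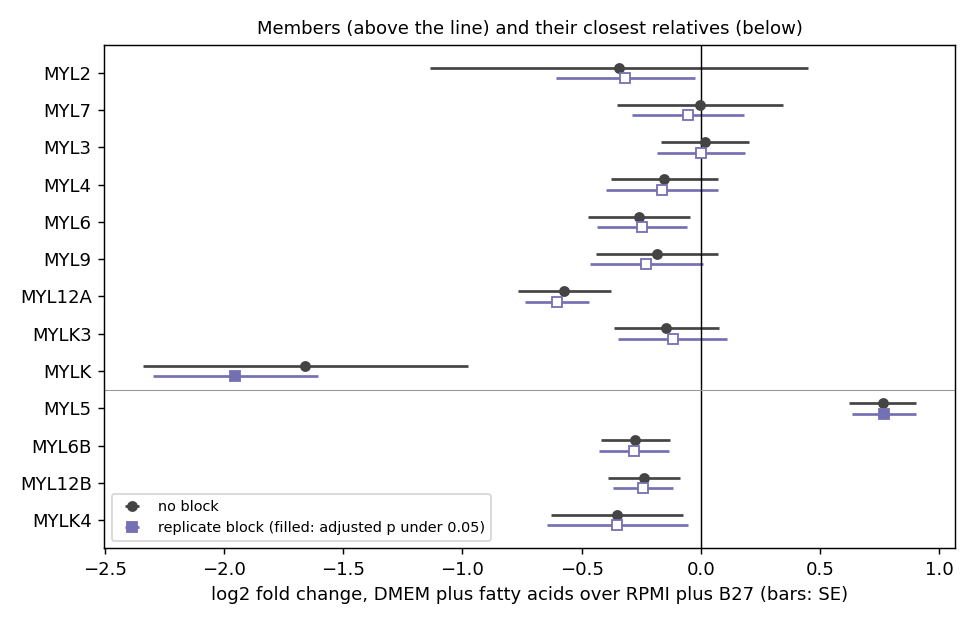
Log2 fold change with its SE for the 9 tested members and 4 relatives, without the block (circles) and with the replicate block (squares, filled where the adjusted p is under 0.05). MYLK (-1.95) and MYL5 (0.77) are called with the block, and MYL12A lies below 0 by several SE without being called.

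Of 13 other kinases and calmodulins, 0 were called in either edgeR fit or by DESeq2, and 1 had an unadjusted p under 0.05 (17.7% of all tested genes). That gene was DAPK3 (a kinase of the regulatory chain also called ZIPK), with 143.6, 101 and 122.5 CPM in RPMI plus B27 and 93.6, 74.9 and 41.0 CPM in DMEM plus fatty acids (log2 fold change -0.81 ± 0.29, edgeR adjusted p 0.212). CDC42BPA, a Cdc42-binding kinase, had a log2 fold change of 0.17 ± 0.11 (edgeR adjusted p 0.447).

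Of 7 myosin phosphatase genes, 0 were called without the block or by DESeq2 and 1 with the block (4.78% of all tested genes). PPP1R14C, an inhibitor of the phosphatase, fell by 0.98 ± 0.15 on the log2 scale with the block (edgeR adjusted p 0.0262, and 0.307 without it). Without the block its log2 fold change was -0.93 with all libraries, -0.58 without RPMI plus B27 replicate 1 and -1.49 without DMEM plus fatty acids replicate 1. It had 208, 94.3 and 136 CPM in RPMI plus B27 and 127, 51.9 and 52.5 CPM in DMEM plus fatty acids, and the media overlapped. The smooth muscle inhibitor PPP1R14A (CPI-17) had 25.3 ± 2.42 and 12.7 ± 5.79 CPM (log2 fold change -0.99 ± 0.35, adjusted p 0.201). PPP1R12B, the striated muscle targeting subunit, had 1334 ± 184 and 1802 ± 182 CPM (0.43 ± 0.17, 0.248), and the inhibitor PPP1R14B had a log2 fold change of 0.23 ± 0.15 (0.477).

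Of 7 heavy chain partners, 2 were called with the block (4.78% of all tested genes). These were MYH7 downward (log2 fold change -1.32 ± 0.23, edgeR adjusted p 0.0359) and MYH7B upward (0.80 ± 0.12, 0.0251). MYH7B overlapped between media, and without the block its log2 fold change was 0.79 ± 0.45 (adjusted p 0.410), 0.38 without DMEM plus fatty acids replicate 1, 0.52 without RPMI plus B27 replicate 3 and 1.29 without RPMI plus B27 replicate 1. In the same fit, MYH7, MYH6 (log2 fold change 0.86 ± 0.27), MYH10 (-0.49 ± 0.16) and MYH14 (0.64 ± 0.20) had adjusted p values of 0.163 to 0.172. Of 13 transcription factors of light chain genes, 0 of the 12 tested were called in either edgeR fit (1.36% of all tested genes without the block, 4.78% with it). MEF2C (log2 fold change 0.39 ± 0.10), MYOCD (myocardin, -0.45 ± 0.14), MRTFA (-0.35 ± 0.12) and SRF (serum response factor, -0.59 ± 0.26) had the smallest p values of that list, with adjusted values of 0.123, 0.165, 0.203 and 0.298. NR2F1, an atrial factor too low for the edgeR test, had 74, 4 and 6 counts in RPMI plus B27 and 1, 1 and 0 in DMEM plus fatty acids, and DESeq2 called it together with MYL5, MYH6 and MYH7.

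Among all 16106 other tested genes, those whose log2 CPM followed MYL2 most closely over the 6 libraries were TNFAIP3, APBA3, RHOQ and DCAF11, at a Pearson's r of 0.985 to 0.994. For MYL9 they were SYNJ2, CTTNBP2NL, SYNPO2L and DUSP4 (0.980 to 0.988), and for MYLK3 they were USP38, CCNQ, LOC107984036 and UBE2K (0.976 to 0.987). The libraries share media and replicate numbers, and these genes were picked as the highest of many, so the values describe likeness in 6 libraries with no test.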

How the data were processed

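Gene expression was measured by stranded mRNA sequencing, per the labels' protocols, in 6 libraries, 3 per medium, grouped and numbered by the sample titles. The deposited values are raw counts per gene symbol, 1 table per library, with no normalization by the authors. STAR, HTSeq and the build hg38 are named in the submitters' processing notes, without versions; the gene annotation and the strand setting are not given in the sources used here. Gene rows held 84.4% to 87.2% of each table, and the summary rows (reads in no gene 5.44% to 7.57%, ambiguous 3.90% to 4.15%, not uniquely aligned 3.05% to 4.10%) were left out.

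The test used edgeR 4.0.16 under R 4.3.3 (filterByExpr with minimum count 10 and minimum total 15, TMM, quasi-likelihood test, Benjamini-Hochberg over the 16107 genes tested, threshold 0.05), with DESeq2 1.42.0 as an alternative. The edgeR fit without the block was tested on simulated counts of independent libraries, and the fit with the block was not. Each SE is the fold change divided by the square root of F. Without the block, p-values rest on the spread between labelled biological replicates. With the block, they rest on the spread of the differences within pairs of the same number. Lengths are medians of complete coding transcripts in GENCODE 29. Shares use raw counts within a library, with exact permutation tests and 95% Wilson intervals. Without molecular identifiers, intervals and the limit of 3 counts cover counting error only.

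Deviations from the mean of a medium correlated at 0.31, 0.43 and 0.37 across genes for libraries sharing a replicate number and at -0.24 to -0.14 for the others, so the numbers were taken to pair the libraries; what the numbers stand for is not in the labels. The blocked fit has 2 residual degrees of freedom in place of 4.

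The members and gene lists were chosen with earlier results of these data known. Named genes are the members, MYL12B, MYL6B and MYLK4, per list the called genes or else up to 4 with the smallest p, and the 4 genes most like MYL2, MYL9 and MYLK3. MYL1, MYLPF, MYH7B, NR2F1, IRX4, HEY2, HAND1, ACTA2, TAGLN, SMTN, SYNPO2, TNNT2, MYOD1, MYF5 and PAX7 were named after their values were seen. So were NPPA, KCNJ3, CKM, MYH3, TNNC2, CNN1, MYH11, TNNI3, MYBPC3, PLN and NKX2-5. Of the epicardial and endothelial markers, 1 of 5 and 0 of 2 were called without the block, 3 and 1 with it and 3 and 1 by DESeq2. Cardiomyocyte markers had 0 of 10 without the block, 2 with it and 1 by DESeq2, and skeletal muscle markers 0 of 3, 1 and 1 (CKM). Over all tested genes these shares were 1.36%, 4.78% and 6.93%. Genes of the cell type lists other than smooth muscle are not named by the rule above. A result for 1 kinase that the rule names is not reported here.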

Additional observations from a re-analysis of the deposited data

How the results depend on the processing

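The number of genes called over the whole table was 219 and depended on the setting. It was 539 with no filter, 119 with at least 10 counts in every library, 1232 by the DESeq2 Wald test and 770 with the replicate block, and 3 to 131 when 1 library was left out. Members called numbered 0 under every alternative except the replicate block (1, MYLK). Of the pathway genes, 1 was called under scaling by library totals and 1 with no filter (0 without either), 4 by DESeq2 and 4 with the block. The block changed no other member's call. Scaling by library totals moved the median over all tested genes to 0.12 on the log2 scale, from 0.01, and the called genes from 47 higher and 172 lower to 74 and 128.

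Fold changes of members near 0 changed sign. MYL7 was 0.090 under library totals, 0.011 with no filter and -0.28 to 0.27 with 1 library left out, and MYL3 was -0.00029 with the block and -0.17 to 0.12. With 1 library left out, MYL2 ran from -0.98 to 0.78, MYL4 from -0.29 to 0.020, MYL9 from -0.37 to 0.052 and MYLK3 from -0.35 to 0.0033. MYL6, MYL12A and MYLK kept their sign in all 12 alternatives. The adjusted p of MYLK ran from 0.0373 to 0.482 and that of MYL12A from 0.0629 to 0.349. LMOD1 lost its call in 6 of 12 alternatives and CALD1 in 7 of 12. The difference in MYL2 share ran from -2.20 to 1.87 percentage points with 1 library left out. The other 3 planned shares kept their direction in all 10 alternatives, but not all of these could have changed it. The mean within-pair difference equals the main value by construction. Counts per kilobase rescale each gene by a constant, which cannot change the direction within a pair. The setting with merged exons was added after seeing the data. The cause of these changes was not tested.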
